A study of Homo sapiens with 6 samples.

Results

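Collagen chain genes encode the alpha chains that assemble into collagens, and their response to DAXX knockdown was examined in MDA-MB-231 cells. A gene was counted as a collagen chain gene where a transcript cluster of the array, the set of probes that reads 1 transcript locus, was paired with exactly 1 symbol made of COL, a number, A and a number. Where several clusters carried the symbol, the one with the highest mean signal over the 6 arrays was kept. The rule gave 41 genes of the 22465 tested. It left out 3 of the 44 collagen chain genes that were looked for. COL3A1 and COL26A1 share their clusters with a further symbol, and COL17A1 was not analysed here.

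MDA-MB-231 is an established triple-negative breast cancer cell line of mesenchymal character. All 6 samples carried a lentiviral short hairpin RNA (shRNA) and came from stable lines selected with 2 µg/ml puromycin. In the 3 shControl samples the hairpin had a scrambled sequence. In the 3 shDAXX samples 1 hairpin was directed against DAXX, a protein that deposits a histone H3 variant and regulates transcription, so an effect of that hairpin on other transcripts cannot be told apart from that of DAXX loss. Cells grew in complete DMEM for 24 hours, and 200 ng of total RNA per sample was hybridized to 1 Affymetrix human transcriptome array. The submitters call the replicates biological.

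Each collagen molecule is a triple helix of 3 alpha chains, alike or different, wound from repeats in which glycine recurs at a regular spacing. Fibrillar collagens give tissues tensile strength, network-forming type IV collagens make up the scaffold of basement membranes, and other classes decorate fibrils, bead into filaments or span the cell membrane. The chains are hydroxylated, folded and exported by enzymes and chaperones of the secretory pathway and are cross-linked outside the cell. Carcinoma cells are commonly held to deposit little fibrillar collagen themselves, most of which is laid down by fibroblasts, while lysyl oxidases from tumor cells can stiffen that matrix.

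The deposited values are log2 RMA signals. A difference below is shDAXX minus shControl on that scale, levels are means ± SD with n = 3, and "called" means a Benjamini-Hochberg adjusted p under 0.05 over all 22465 genes in limma's moderated test. Probes of different genes are not comparable in brightness, so signal sorts genes into brighter and dimmer probe sets only and is not read as a level of one gene against another. Arrays had median signals of 4.96 to 5.07 and correlated at 0.996 to 0.997 within groups and 0.991 to 0.992 between them. DAXX read 7.49, 7.48 and 7.43 in shControl and 6.69, 6.67 and 6.61 in shDAXX, a fall of 0.81 (the difference was -0.81, SE 0.060, adjusted p = 0.000489), in the direction the labels give. Of the cell line's own mesenchymal markers, CD44 read 12.92 to 12.99 in shControl and 13.27 to 13.40 in shDAXX and was called higher (difference 0.39, adjusted p = 0.0130). VIM read 15.97 to 16.06 and 15.72 to 15.87, groups that did not overlap, and was not called (difference -0.23, adjusted p = 0.0918). The part of the CD44 and VIM shifts in the collagen differences was not tested. The epithelial markers CDH1 and EPCAM had differences of 0.05 and 0.04, and neither was called (adjusted p = 0.73 and 0.83). RNA was taken from whole cultures, so fewer expressing cells and less RNA per cell cannot be told apart.

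Of the 41 collagen chain genes, 3 were called higher in shDAXX and 0 were called lower. The 3 were COL4A5, COL4A6 and COL5A1. Over all genes tested, 9.90% were called, 4.30% higher and 5.60% lower, and the share of collagens called was 7.32%, close to that background. Differences of the collagens ran from -0.26 to 0.90 with a median of 0.06, beside a median of 0.01 over all genes. At an unadjusted p under 0.05 there were 5 collagens, 12.2%, a share below the 23.6% of all genes at that limit, and of the 5 COL4A1 was the only one with a negative difference. Groups did not overlap for 9 collagens that were higher and 3 that were lower in shDAXX, against 28.7% of all genes in either direction.

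**Figure D1:**
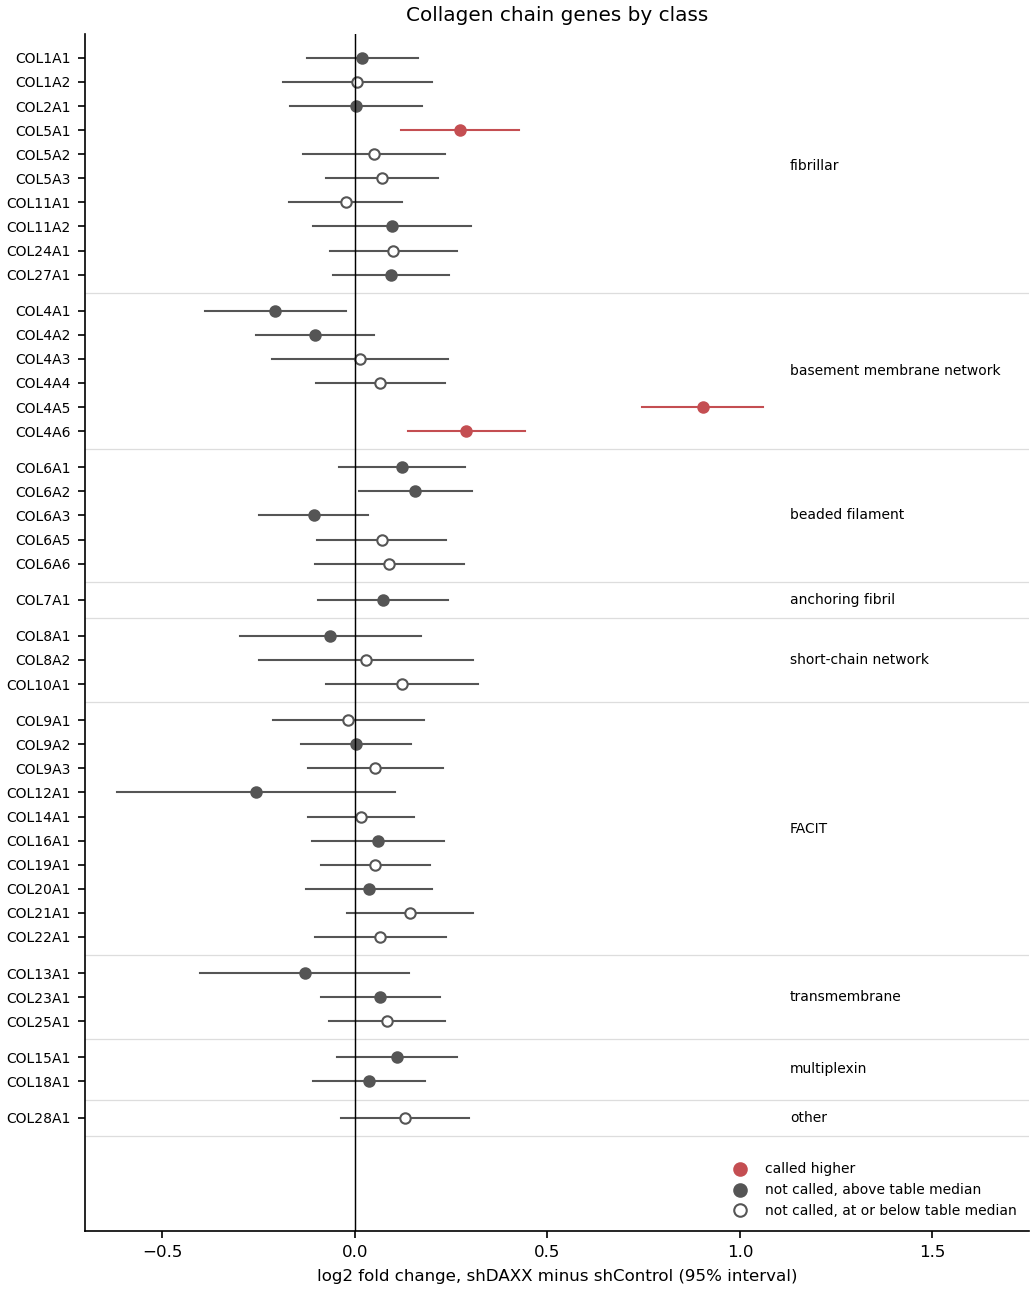
Differences of the 41 collagen chain genes (x axis, log2 fold change of shDAXX minus shControl, with the 95% interval of the limma fit), grouped by structural class. Filled symbols are genes whose higher group mean was over 4.99, the median of the row means, and open symbols those at or below it. Red marks the 3 called higher. COL4A5 at 0.90 lies beyond all the others, which run from -0.26 to 0.29.

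The start regions of the 3 called genes and of the COL4A1 and COL4A2 pair are shown because the called genes include a head-to-head pair of type IV genes, and COL4A1 and COL4A2, a head-to-head pair that was not called, are set beside it. In the RefSeq annotation of GRCh38.p14, COL4A4 and COL4A3 start 418 bases apart on chromosome 2, COL4A1 and COL4A2 126 bases apart on chromosome 13, and COL4A6 and COL4A5 379 bases apart on chromosome X, in each pair on opposite strands. The sequences are the 250 bases upstream of each start, 5′ to 3′ on the gene's strand, or, for COL4A1 and COL4A2, all bases between the starts on the COL4A2 strand. They lie at chrX:108439588-108439837 on the plus strand (COL4A5), chrX:108439459-108439708 on the minus strand (COL4A6), chr9:134641553-134641802 on the plus strand (COL5A1) and chr13:110307158-110307283 on the plus strand (COL4A1 and COL4A2). Capitals mark a CCAAT box or a GC box (GGGCGG), read on both strands.
COL4A5: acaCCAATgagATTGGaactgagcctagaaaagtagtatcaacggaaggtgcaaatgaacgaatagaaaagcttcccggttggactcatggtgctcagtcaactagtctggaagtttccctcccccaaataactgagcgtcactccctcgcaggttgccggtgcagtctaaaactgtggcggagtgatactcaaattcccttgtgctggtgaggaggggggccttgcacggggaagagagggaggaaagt
COL4A6: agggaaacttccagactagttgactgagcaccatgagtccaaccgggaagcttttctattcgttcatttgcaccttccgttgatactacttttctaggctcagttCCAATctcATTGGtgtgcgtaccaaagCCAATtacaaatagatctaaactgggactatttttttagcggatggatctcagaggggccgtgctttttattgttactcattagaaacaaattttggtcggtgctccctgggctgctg
COL5A1: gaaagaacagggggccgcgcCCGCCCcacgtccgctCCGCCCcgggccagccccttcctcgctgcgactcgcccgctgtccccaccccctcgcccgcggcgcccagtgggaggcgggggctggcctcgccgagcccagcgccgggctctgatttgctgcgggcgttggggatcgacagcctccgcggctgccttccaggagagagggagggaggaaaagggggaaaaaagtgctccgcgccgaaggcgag
COL4A1-COL4A2: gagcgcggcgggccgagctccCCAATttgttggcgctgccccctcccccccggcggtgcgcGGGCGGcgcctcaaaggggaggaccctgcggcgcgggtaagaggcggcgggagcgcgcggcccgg
The COL4A5 window holds 2 CCAAT matches and the COL4A6 window 3. The windows overlap, and 2 of the matches are the same bases read from either strand. The COL5A1 window holds 2 GC boxes and 0 CCAAT matches, and the stretch between COL4A1 and COL4A2 holds 1 of each. None of the 4 stretches holds TATAAA on either strand. Over 35116 windows of 250 upstream bases, 32.0% hold CCAAT, 42.6% GGGCGG and 10.7% TATAAA. Of the 42 windows found for 30 of the 41 collagens, 26.2% hold CCAAT, 57.1% GGGCGG and 16.7% TATAAA. These are matches of letters and say nothing of a factor bound there.

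Type IV collagen, the network of basement membranes, held both the largest change and 2 of the 3 calls. That is 2 of its 6 genes, 33.3% beside the 9.90% of all genes called. Of the 2, COL4A6 lost its call without any 1 array. The 6 genes had differences of either sign. COL4A5 encodes the alpha5 chain, which assembles with alpha3 and alpha4 or with alpha6 and is the chain most often mutated in Alport syndrome. COL4A5 read 6.07, 6.05 and 6.13 in shControl and 7.00, 7.05 and 6.91 in shDAXX. All 3 shDAXX arrays lay far above all 3 controls. The level rose from 6.08 ± 0.042 to 6.99 ± 0.071, a difference of 0.90 (SE 0.066, 95% interval 0.75 to 1.06, adjusted p = 0.000473) or 1.87-fold. The call held with any 1 array left out, with differences of 0.87 to 0.94.

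COL4A6 encodes the alpha6 chain, which pairs with alpha5 in the basement membranes of smooth muscle and some epithelia and shares the start region with COL4A5. COL4A6 read 5.04, 5.01 and 4.99 in shControl and 5.38, 5.28 and 5.25 in shDAXX. The groups did not overlap. The difference was 0.29 (SE 0.064, 95% interval 0.14 to 0.44, adjusted p = 0.0344) or 1.22-fold, and leaving out any 1 of the 6 arrays took the adjusted p to 0.0699 to 0.104. Both genes rose, and COL4A5 rose by 0.61 more than COL4A6 on the log2 scale. In an exact two-sided permutation test of that excess, p was 0.1, the smallest that 3 against 3 arrays can give, so the test could not pass 0.05, and 0.2 after adjustment over 4 pairs of type IV genes compared. The 10 nearest protein-coding genes, 5 on each side, had a median difference of 0.02 for COL4A5 and of 0.02 for COL4A6. Neither set left out the other gene of the pair.

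The other type IV genes gave smaller differences, and none was called. COL4A1 and COL4A2 encode the alpha1 and alpha2 chains of the ubiquitous basement membrane network. COL4A1 read 7.21, 7.29 and 7.09 in shControl and 6.95, 7.07 and 6.95 in shDAXX, with the groups apart by a narrow margin and a difference of -0.21 (SE 0.077, 95% interval -0.39 to -0.02, adjusted p = 0.162). COL4A2 read 7.46, 7.59 and 7.50 against 7.45, 7.42 and 7.37, where the highest shDAXX array lay just under the lowest control, and its difference was -0.10 (SE 0.065, 95% interval -0.26 to 0.05, adjusted p = 0.402). The chains of this pair had negative differences where COL4A5 and COL4A6 rose. The 10 nearest protein-coding genes had a median difference of -0.07 for COL4A1 and of -0.09 for COL4A2, with the other gene of the pair left in.

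COL4A3 and COL4A4 encode the alpha3 and alpha4 chains, the partners of alpha5 in the glomerulus, lung and cochlea. COL4A3 read 4.48, 4.35 and 4.65 in shControl and 4.52, 4.40 and 4.60 in shDAXX, a difference of 0.01 (95% interval -0.22 to 0.24). COL4A4 read 4.88, 4.72 and 4.84 against 4.84, 4.86 and 4.94, a difference of 0.07 (95% interval -0.10 to 0.23). The groups overlapped for both, and both were in the dim part of the array, where RMA compresses differences.

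**Figure D2:**
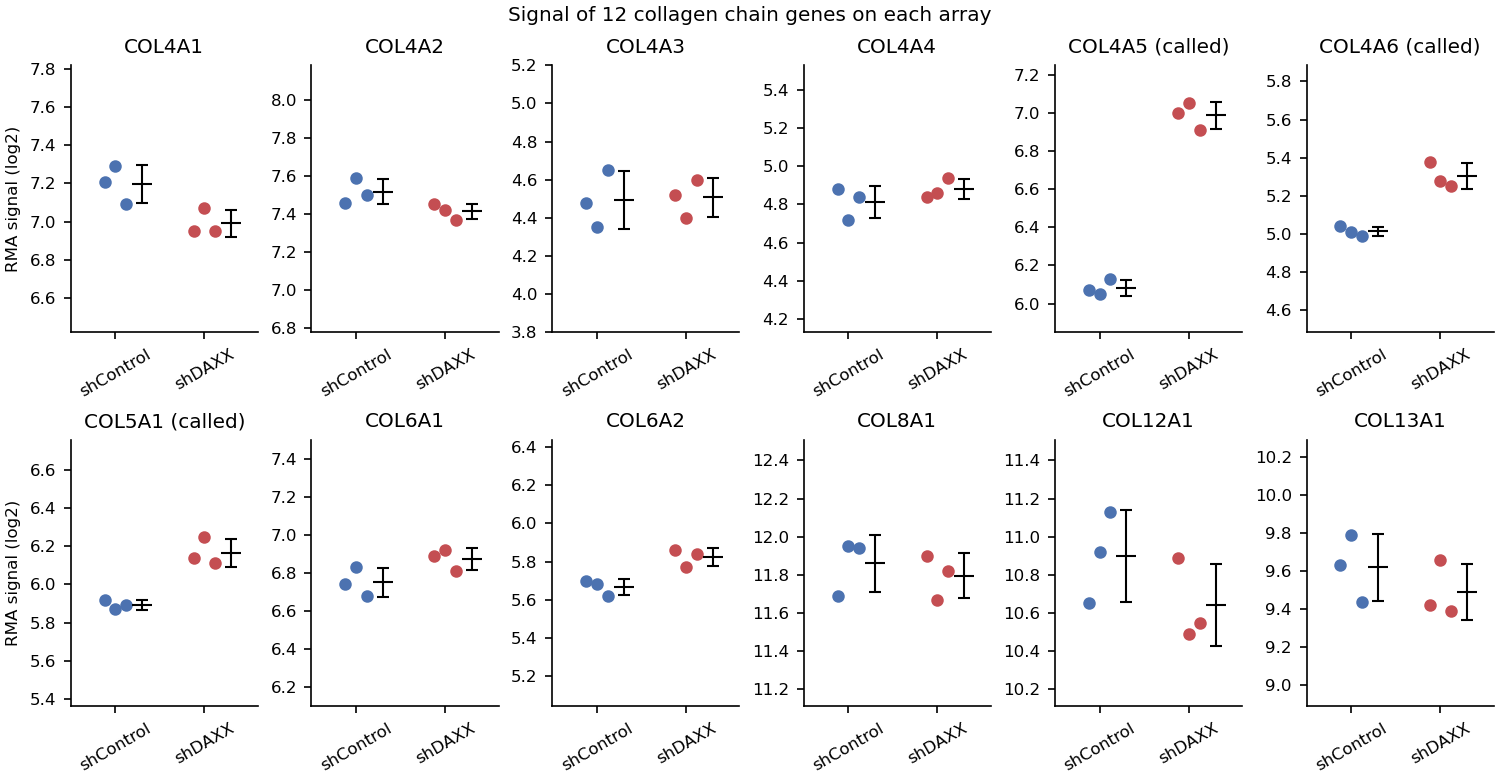
RMA signal (y axis, log2; each panel spans the same range of 1.4 units but at its own level) of 12 collagen chain genes on each of the 3 shControl (blue) and 3 shDAXX (red) arrays, with mean ± SD beside the points. COL4A5 separates from 6.05 to 6.13 in shControl to 6.91 to 7.05 in shDAXX, COL4A6 and COL5A1 by less, and COL8A1, COL12A1 and COL13A1 overlap between groups.

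Among the 10 fibrillar chains 1 was called, 10% beside the 9.90% of all genes. COL5A1 encodes the alpha1 chain of type V collagen, which sits inside type I fibrils and sets their diameter. It read 5.92, 5.87 and 5.89 in shControl and 6.14, 6.25 and 6.11 in shDAXX. The groups were clearly apart. The difference was 0.27 (SE 0.065, 95% interval 0.12 to 0.43, adjusted p = 0.0446) or 1.21-fold, and it lost its call without any 1 array, with adjusted p of 0.0830 to 0.121. Its 10 nearest protein-coding genes had a median difference of 0.12.

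The other 9 fibrillar chains were not called, with differences from -0.02 for COL11A1 to 0.10 for COL24A1. The other chains of type V, COL5A2 and COL5A3, had differences of 0.05 (SE 0.078) and 0.07 (SE 0.061). COL1A1, the major chain of type I collagen in bone, skin and tumor stroma, read 5.59, 5.60 and 5.63 in shControl and 5.67, 5.57 and 5.64 in shDAXX. The groups overlapped, and the difference was 0.02 (95% interval -0.12 to 0.16). COL1A2, its partner chain, had a difference of 0.01 (95% interval -0.19 to 0.20). COL2A1, COL11A1 and COL11A2, known from cartilage, had differences of 0.00, -0.02 and 0.10.

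Type VI collagen forms beaded filaments around cells, and none of its 5 chains was called. COL6A1 and COL6A2 lie side by side on chromosome 21 and encode the short alpha1 and alpha2 chains. COL6A2 read 5.70, 5.68 and 5.62 in shControl and 5.86, 5.77 and 5.84 in shDAXX. The groups did not overlap, and its difference was 0.16 (SE 0.062, 95% interval 0.01 to 0.30, adjusted p = 0.184). COL6A1 read 6.74, 6.83 and 6.68 against 6.89, 6.92 and 6.81, a difference of 0.12 (SE 0.069, adjusted p = 0.343) with 1 shDAXX array below the highest control. COL6A3, the long alpha3 chain that completes the heterotrimer, had a difference of the opposite sign, -0.11 (SE 0.060, adjusted p = 0.344), and its groups did not overlap. COL6A5 and COL6A6, later members of the family, had differences of 0.07 and 0.09.

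The collagens with the brightest probe sets were COL8A1, COL12A1 and COL13A1, and none was called. COL8A1, a short-chain network collagen of vessel walls and of Descemet's membrane in the eye, read 11.69, 11.95 and 11.94 in shControl and 11.90, 11.67 and 11.82 in shDAXX. The groups overlapped throughout, with a difference of -0.06 (95% interval -0.30 to 0.17). COL12A1 encodes a FACIT collagen, a class that binds to the surface of fibrils instead of forming them. It read 10.65, 10.92 and 11.13 in shControl and 10.89, 10.49 and 10.55 in shDAXX, the widest spread within groups of any collagen, with SDs of 0.24 and 0.22. Its difference of -0.26 (95% interval -0.62 to 0.10, adjusted p = 0.371) was the lowest of all collagens. The 10 nearest protein-coding genes of COL12A1 had a median difference of -0.225.

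COL13A1, a transmembrane collagen of cell adhesions and the neuromuscular junction, read 9.63, 9.79 and 9.44 in shControl and 9.42, 9.66 and 9.39 in shDAXX. The groups overlapped, and the difference was -0.13 (95% interval -0.40 to 0.14, adjusted p = 0.570). The other transmembrane chains, COL23A1 and COL25A1, had differences of 0.07 and 0.08. The other 9 FACIT chains had differences from -0.02 for COL9A1 to 0.14 for COL21A1, with adjusted p of 0.273 or above. COL8A2 and COL10A1, the latter of hypertrophic cartilage, had differences of 0.03 and 0.12. COL7A1, the anchoring fibril chain of the skin, and COL15A1 and COL18A1, the multiplexins whose ends can be cut to give endostatin-type fragments, had differences of 0.07, 0.11 and 0.04. COL28A1 had a difference of 0.13.

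A small positive difference was common among the collagens: 33 of 41 (80.5%) were above 0, against 51.2% of all genes. Genes were split by the higher of their shControl and shDAXX means, at 4.99, the median of all row means of the table. A positive difference was found in 17 of the 19 collagens at or below that limit, against 59.9% of all genes there. Above it the count was 16 of 22 (72.7%), against 46.5% of all genes. The split is not independent of the difference. COL15A1, with means of 4.89 in shControl and 5.00 in shDAXX, passed the limit only through shDAXX. So did COL20A1, with means of 4.98 and 5.01. In the dim group differences ran from -0.02 to 0.14 with 0 calls, where 0.859% of all equally dim genes were called. For 17 of these 19 collagens shControl replicate 2 alone was the lowest of the 3 controls, and for 1 more it tied. The same count over all equally dim genes was not made. Replicate 2 also had the lowest control median over all rows (5.03, 4.96 and 5.04) and over all genes tested (5.77, 5.74 and 5.75). Among the shDAXX arrays, too, replicate 2 had the lowest median over all rows (5.07, 4.99 and 5.04). The median collagen signal was 4.97, 4.90 and 4.99 on the shControl arrays and 5.02, 4.96 and 5.04 on the shDAXX arrays. Without shControl replicate 2 the median difference of all 41 collagens was 0.02 and 27 were above 0, and the median over all genes went from 0.007 to -0.003. Without any other 1 array the collagen median was 0.04 to 0.08, with 30 to 34 above 0. The highest median was that without shDAXX replicate 2. The part of single arrays in the shift was not tested beyond this.

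**Figure D3:**
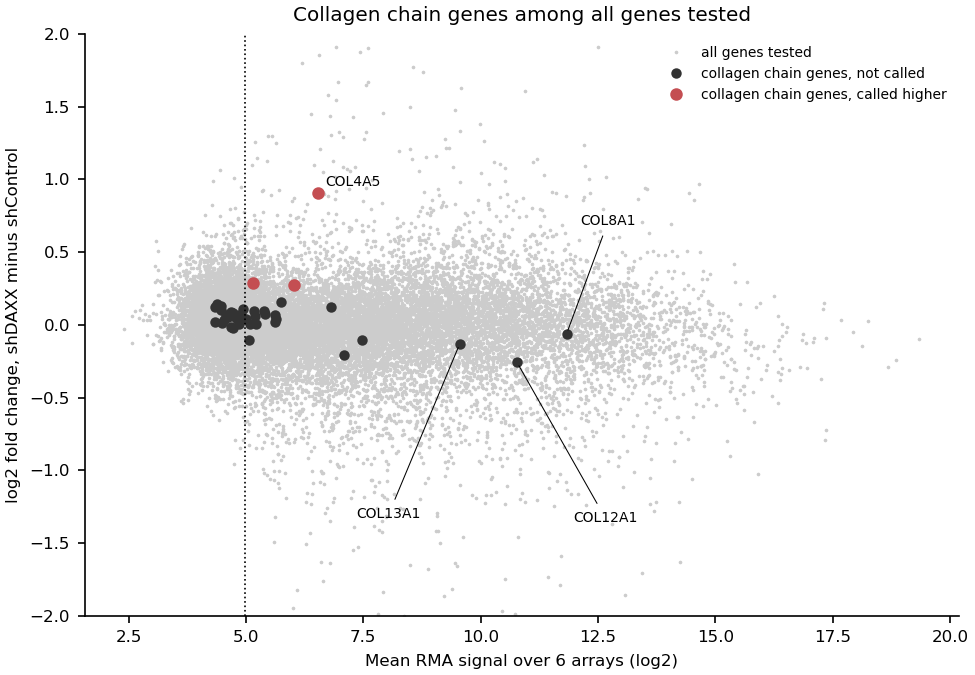
Difference between groups (y axis, log2 fold change of shDAXX minus shControl, limited to differences of up to 2 in size, which leaves out 35 genes) against mean RMA signal over the 6 arrays (x axis, log2) for all 22465 genes (grey), the 38 collagens not called (black) and the 3 called higher (red). The dotted line is the median row mean of 4.99, and most collagens crowd near it and near a difference of 0, with COL4A5 apart at 0.90.

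Genes that modify, fold, cut, cross-link or bind collagen were read from 7 lists, of which 68 genes were measured. Of these 11 were called higher and 5 lower, 23.5% against the 9.90% of all genes, with a median difference of 0.05. The lists were written with earlier results of these data known, and no list was tested, so these shares only describe the lists. They also hold genes that act on many other proteins. The enzymes of prolyl and lysyl hydroxylation and glycosylation, which make the helix stable and ready for cross-links, gave 4 called higher and 0 lower of 14 measured. That is 28.6%, beside the 9.90% of all genes called, and the median of the list was 0.12. P4HA1, the catalytic alpha subunit of prolyl 4-hydroxylase, read 11.87, 11.90 and 11.86 in shControl and 12.64, 12.80 and 12.90 in shDAXX, a rise of 0.90 (SE 0.080, adjusted p = 0.00104). P4HA2, an alternative subunit, rose by 0.67 (SE 0.075, adjusted p = 0.00250). The common beta subunit P4HB had a difference of 0.17 that was not called (adjusted p = 0.190).

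PLOD2, the lysyl hydroxylase that acts on the telopeptides where fibrils are cross-linked, read 13.14, 13.10 and 13.03 in shControl and 13.72, 13.88 and 13.79 in shDAXX. It rose by 0.71 (SE 0.070, adjusted p = 0.00153). COLGALT1, which adds galactose to hydroxylysine, rose by 0.63 (SE 0.075, adjusted p = 0.00318) and was named after its values were seen. The other lysyl hydroxylases differed in sign, with 0.22 for PLOD1 (adjusted p = 0.176) and -0.22 for PLOD3 (adjusted p = 0.143), neither called.

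Of 7 enzymes that cross-link collagen 4 were called higher and 1 lower, 71.4% beside the 9.90% of all genes, with a median of 0.37. LOXL4, a lysyl oxidase-like enzyme, read 6.80, 7.00 and 6.85 in shControl and 8.22, 8.17 and 8.10 in shDAXX, a rise of 1.28 (SE 0.077, adjusted p = 0.000192). LOX, the lysyl oxidase of collagen and elastin, read 10.48, 10.69 and 10.48 against 11.54, 11.74 and 11.72 and rose by 1.12 (SE 0.091, adjusted p = 0.000726). LOXL2, which acts on type IV collagen among other substrates, read 11.69, 11.85 and 11.69 against 12.57, 12.65 and 12.58 and rose by 0.86 (SE 0.071, adjusted p = 0.000808). In all 3 genes the groups lay far apart, and the calls held without any 1 array.

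LOXL1, named after its values were seen, rose by 0.37 (SE 0.071, adjusted p = 0.0213), and LOXL3 differed by 0.03 (SE 0.069). PXDN, the peroxidase that forms the sulfilimine bonds of the type IV network, read 13.58, 13.67 and 13.63 in shControl and 13.85, 13.86 and 13.84 in shDAXX. Its difference of 0.22 (SE 0.059) missed the call with an adjusted p of 0.0622. TGM2, a transglutaminase, went the other way, from 12.19, 12.31 and 12.18 to 11.52, 11.74 and 11.63, a difference of -0.60 (SE 0.080, adjusted p = 0.00525). Of the 10 nearest protein-coding genes, the median difference was 0.04 for LOX, 0.26 for LOXL2 and 0.07 for LOXL4.

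**Figure D4:**
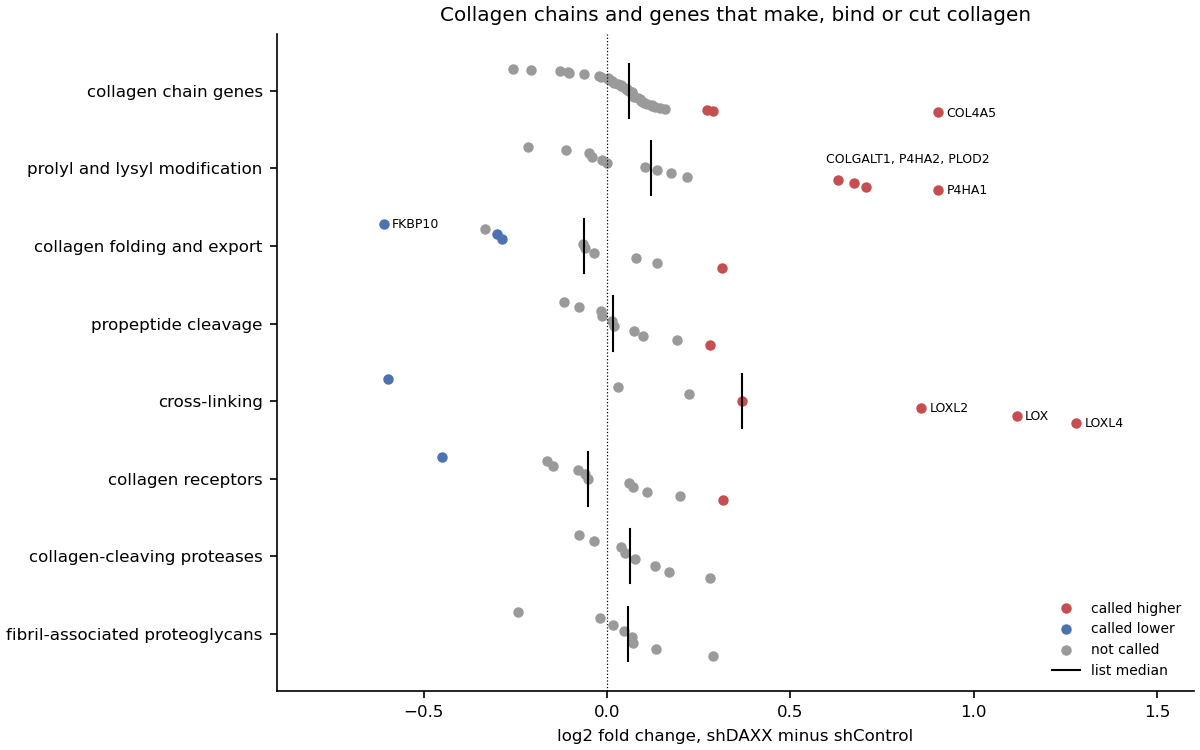
Differences (x axis, log2 fold change of shDAXX minus shControl) of the collagen chain genes and of 7 lists of genes that act on collagen, 1 point per gene, with called genes in red (higher) and blue (lower) and a bar at each list's median. The cross-linking list has its median at 0.37 and the prolyl and lysyl modification list at 0.12, while the other 6 rows have medians between -0.06 and 0.06.

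Collagen folding and export gave calls in both directions, 1 higher and 3 lower of 10 (40%, beside the 9.90% of all genes), with a median of -0.06. FKBP10, a prolyl isomerase of the endoplasmic reticulum whose loss causes brittle bones, read 5.75, 5.77 and 5.64 in shControl and 5.01, 5.10 and 5.22 in shDAXX, a difference of -0.61 (SE 0.078, adjusted p = 0.00445). The groups were well apart, and the median of its 10 neighbours was -0.14. SEC24D and MIA2, parts of the coat and receptor that load large cargo into transport carriers, had differences of -0.30 (adjusted p = 0.0415) and -0.29 (adjusted p = 0.0359). TMEM38B, an ion channel of the endoplasmic reticulum, rose by 0.31 (adjusted p = 0.0289). SEC24D and MIA2 lost the call without any 1 array, and TMEM38B without 5 of the 6. With the mean of its clusters in place of the brightest, MIA2 differed by only -0.10 (adjusted p = 0.490). SERPINH1 (HSP47), the chaperone dedicated to collagen, differed by 0.14 (SE 0.079, adjusted p = 0.357) and was not called.

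Of 10 genes for cutting propeptides off procollagen, 1 was called, 10% beside the 9.90% of all genes. This was BMP1, the C-proteinase, with a rise of 0.28 (SE 0.069, adjusted p = 0.0488). The call was lost without any 1 array. Of 11 collagen receptors 1 was called in each direction, 18.2% in all beside the 9.90% of all genes. ITGA1, the integrin alpha1 subunit that favours type IV collagen, rose by 0.32 (SE 0.074, adjusted p = 0.0424) and lost the call without any 1 array. ITGA10, the alpha10 subunit, read 5.86, 5.95 and 5.93 in shControl and 5.49, 5.47 and 5.43 in shDAXX, a difference of -0.45 (SE 0.061, adjusted p = 0.00530). The kinase receptors DDR1 and DDR2 had differences of -0.16 and -0.06, and neither was called.

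Of the 8 collagen-cleaving proteases and the 8 small proteoglycans that coat fibrils, 0 were called in limma, with 2 of each list at an unadjusted p under 0.05, 25% beside the 23.6% of all genes. MMP1, the interstitial collagenase, read 10.78, 11.01 and 10.81 in shControl and 10.96, 11.19 and 11.29 in shDAXX, with 1 shDAXX array within the control range and a difference of 0.28 (adjusted p = 0.173). FAP, a surface protease, differed by 0.17 (adjusted p = 0.172). OGN and FMOD, proteoglycans that bind type I fibrils, differed by 0.29 (adjusted p = 0.114) and -0.24 (adjusted p = 0.172).

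Collagens are also made by fibroblasts, pericytes and endothelial cells, whose markers were read on the same arrays. Of 10 fibroblast and pericyte markers 0 were called higher and 1, RGS5, was called lower (difference -0.35, adjusted p = 0.0255). That is 10%, beside the 9.90% of all genes called. The summed linear signal of these markers was 398.7 to 413.1 in shControl and 378.3 to 398.7 in shDAXX. Such a sum weighs bright probe sets most. RGS5 was the brightest of the list, and the list's median difference was -0.008. Of 7 endothelial markers 1 (14.3%), CDH5, was called higher (difference 0.37, adjusted p = 0.0366). The summed linear signal of the 7 was 306.8 to 316.4 in shControl and 334.2 to 350.1 in shDAXX. KDR and CDH5 were the brightest of them, and their list had a median difference of 0.10. RGS5 and CDH5 each lost the call without 5 of the 6 arrays. The other 9 fibroblast and pericyte markers ran from -0.17 for PDGFRB to 0.17 for FAP, and the groups did not overlap for these or for POSTN (0.16). Over all genes, groups did not overlap for 28.7%. The other 6 endothelial markers ran from -0.25 for PECAM1 to 0.24 for KDR, whose groups did not overlap, and 5 of all 7 had a positive difference. None of these was called, and an RMA table gives no true zero for them. The part of these markers in the differences of COL4A5, COL4A6 and COL5A1 was not tested.

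With the unpaired test that the study's methods name for comparisons of 2 groups, at an unadjusted p under 0.05 and a fold over 1.3, COL4A5 was the only collagen called, beside 7.87% of all genes.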

How the data were processed

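RNA of 3 shControl and 3 shDAXX cultures was read on 1-colour arrays, 1 per sample, grouped by the sample titles. The authors made the deposited log2 values with RMA (background correction, normalization between arrays, summary per cluster) in, per the submitters' notes, Affymetrix Expression Console. Its version, the array's genome build and the use of ComBat on these arrays, which the study names for arrays of different times, are not given in the sources used here. The log base was taken from the values (1.88 to 19.52). RMA compresses differences of dim genes.

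Of 70523 rows, 67528 were transcript clusters, 23781 of them with 1 symbol. A match by gene ID to RefSeq (GRCh38.p14) covered 21497 and changed 0 symbols. For 479 genes with several clusters the brightest was kept, which left 22465 genes. The groups were compared with limma 3.58.1 in R 4.3.3 (lmFit, eBayes, two-sided, no covariates), tested on simulated data first. The number of arrays limits the precision, and p-values measure the spread between these cultures. Arrays of identical values numbered 0 pairs.

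Members and lists were chosen with earlier results of these data known. Named genes were the called collagens, the 8 with the highest mean, the type IV chains, the 2 uncalled collagens of smallest p, up to 3 called genes a direction from a list (else the 2 of smallest p), and DAXX. Others are examples. COLGALT2 was not analysed here. Alternatives were a filter on dim genes, other handling of clusters, quantile normalization, equal array medians, a replicate block, eBayes with trend and robust, the methods' t-test and leaving out each array.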

Additional observations from a re-analysis of the deposited data

How the results depend on the processing

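With 3 collagens called higher as reported, the count was 1 under the replicate block, 1 under the methods' t-test with p under 0.05 and a fold over 1.3, and 1 on leaving out each array in turn. The gene that kept the call was COL4A5 each time. It was 2 with the methods' t-test after adjustment (COL4A5 and COL4A6) and 3 in the other 6 settings. No collagen was called lower in limma or the t-test under any setting run, and 5 collagens in all (12.2%, against 23.6% of all genes) had an unadjusted p under 0.05 in limma. COL4A3, at 0.01 as reported, changed sign to -0.026 with quantile normalization, and ran from -0.058 (without shControl replicate 2) to 0.092 on leaving out each array, with -0.033 without shDAXX replicate 3, and the cause was not tested. The median difference of the collagens was 0.02 to 0.08 on leaving out each array, 0.05 with quantile normalization and 0.10 with equal array medians. Over all genes the 2224 calls became 1474 under the replicate block, 1297 to 1424 without 1 array, where fewer arrays entered the fit, and 1518 with the adjusted t-test. Same-numbered arrays did not deviate together throughout (correlations of deviations -0.09, 0.22 and 0.08), so the replicate numbers were not taken as pairs. Counts chosen after seeing the data were those of positive differences (27 to 35 of 41, and 16 of 22 with the dim filter) and of the partner genes called higher (7 to 13, reported as 11) and lower (3 to 5, reported as 5). Differences near the dim end of the array are limited by signal over background.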

Other observations

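Several collagen loci had clusters that the rule did not use, and their values are given here as values only. A second COL27A1 cluster read 4.63, 4.24 and 4.33 in shControl and 5.28, 4.40 and 4.47 in shDAXX, so its difference of 0.32 came mostly from 1 shDAXX array (adjusted p = 0.496 with every cluster in the fit), whereas the cluster used above had a difference of 0.09. COL11A2 was represented by 7 clusters, 6 of them on alternative haplotypes of chromosome 6, with differences of 0.10 to 0.11. The antisense transcript COL4A2-AS1 read 6.29, 6.28 and 6.42 in shControl and 5.78, 6.11 and 6.05 in shDAXX, a difference of -0.35 (adjusted p = 0.0813) that was not called although the groups did not overlap. The antisense transcripts COL4A2-AS2, COL5A1-AS1, COL18A1-AS1 and COL18A1-AS2 had differences of -0.05, 0.15, 0.00 and 0.22, and the pseudogenes COL6A4P1 and COL6A4P2 differences of 0.01 and 0.11, none of them called.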
